A study of Homo sapiens with 24 samples.

Results

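CXCL9, CXCL10 and CXCL11 encode the 3 ligands of the chemokine receptor CXCR3. Each was read on 1 probe of the array, ILMN_1745356 for CXCL9, ILMN_1791759 for CXCL10 and ILMN_2067890 for CXCL11, and these are 3 of the 47231 features measured. The probes were chosen by their IDs, whose gene names come from the annotation of the Illumina HT-12 array. The deposited table holds no gene names, and the stretch of mRNA that each probe matches was not analysed here. The cells were SW-13, an established line from a human carcinoma of the adrenal cortex, deficient in BRG1, an ATPase of the SWI/SNF remodeling complex. They were transfected with 50 nM of control siRNA (siCtrl) or of siRNA to SUZ12 (siSUZ12), alone or with 75 nM of siRNA to BRM (siBRM), through 2 rounds of transfection. After this they were left untreated or given IFNγ for 6 hours, at a concentration stated in the methods as 0.1 mg/ml. This gave 8 groups, siCtrl, siSUZ12, siCtrl + siBRM and siSUZ12 + siBRM, each untreated or with IFNγ, with 3 arrays per group and 24 in all. SUZ12 is the scaffold subunit of Polycomb Repressive Complex 2 (PRC2), which deposits the repressive H3K27me3 mark, and BRM is the ATPase related to BRG1. The question put to these arrays was whether loss of SUZ12 alters the response of the 3 ligands to IFNγ, and whether BRM is needed for that.

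CXCR3 is carried mainly by activated T cells and natural killer cells, and its ligands draw these cells into inflamed tissue and tumors. All 3 genes are known as targets of IFNγ, which acts through the kinases JAK1 and JAK2. GAS elements, and IRF elements, which IRF1 binds, are found in many promoters of IFNγ stimulated genes (ISGs). CXCL10 was first described as an IFNγ-induced protein and can also be raised by type I interferons and by NF-κB. CXCL11 is known as the ligand with the highest affinity for CXCR3, and CXCL9 as the one most dependent on IFNγ.

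The 3 genes are neighbours on chromosome 4, transcribed from the minus strand. In the RefSeq annotation of GRCh38.p14, CXCL9 lies at chr4:76001275-76007509, CXCL10 at chr4:76021118-76023497 and CXCL11 at chr4:76033682-76036070. The start sites of CXCL9 and CXCL10 are 15988 bases apart, and those of CXCL10 and CXCL11 are 12573 bases apart. The annotation places SDAD1-AS1, a long noncoding RNA, over part of CXCL9, and places CXCL10 and CXCL11 inside the span of the protein-coding gene ART3. The 250 bases before each start site are given 5′ to 3′ on the gene's strand, for description only. Capitals mark matches, on either strand, to the core of the GAS element (TTCNNNGAA) or to the core of the IRF element (AANNGAAA).
CXCL9, chr4:76007510-76007759: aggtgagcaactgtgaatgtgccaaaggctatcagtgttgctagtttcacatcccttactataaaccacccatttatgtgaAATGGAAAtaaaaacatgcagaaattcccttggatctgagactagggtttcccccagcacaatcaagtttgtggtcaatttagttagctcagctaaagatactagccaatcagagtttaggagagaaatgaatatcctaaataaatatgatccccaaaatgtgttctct
CXCL10, chr4:76023498-76023747: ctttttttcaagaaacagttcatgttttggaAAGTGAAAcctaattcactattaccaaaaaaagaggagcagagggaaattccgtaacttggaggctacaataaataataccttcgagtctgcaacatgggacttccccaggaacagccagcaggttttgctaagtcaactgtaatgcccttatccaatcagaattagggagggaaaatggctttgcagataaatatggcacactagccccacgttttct
CXCL11, chr4:76036071-76036320: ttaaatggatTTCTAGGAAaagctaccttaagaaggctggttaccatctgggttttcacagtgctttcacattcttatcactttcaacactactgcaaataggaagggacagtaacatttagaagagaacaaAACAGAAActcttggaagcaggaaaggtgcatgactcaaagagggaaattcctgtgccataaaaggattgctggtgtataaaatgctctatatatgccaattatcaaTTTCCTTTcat
The IRF core was found 1 time before CXCL9, 1 time before CXCL10 and 2 times before CXCL11, and it occurs in 20.3% of the 35116 RefSeq promoter windows of this length. The match before CXCL10 (AAGTGAAA) begins 219 bases before the start site, and that before CXCL9 (AATGGAAA) begins 169 bases before it. The GAS core was found 1 time before CXCL11, 240 bases before the start site, and in neither of the other windows, and it occurs in 6.57% of all windows. No overlap arose between matches of the 2 motifs. A match describes letters only, and no binding was measured on these arrays.

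Signals are given after each array was scaled to the same mean, in the arbitrary units of the scanner. The mean deposited signal per array ran from 532 to 635, and from 15223 to 16799 probes per array were detected, that is, had a detection p-value below 0.01 against the array's negative controls. The highest scaled signal that still failed detection was between 123 and 141 over the 24 arrays. Every array correlated best with an array of its own group. Background was not subtracted, so the fold change of a dim probe is understated. With no gene names in the table, the knockdown of SUZ12 and BRM and the adrenal markers of SW-13 were not checked on these arrays. Probes were compared in 1 limma fit of all 24 arrays, with p-values adjusted by Benjamini-Hochberg over all probes, and a probe was called at a change of at least 2-fold with an adjusted p below 0.05. Permuting 3 arrays against 3 cannot give a p below 0.10, so every test rests on the spread pooled over the arrays. On bulk arrays, more cells that hold a transcript cannot be told apart from more transcript per cell.

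CXCL10 was detected on every array of siSUZ12 cells exposed to IFNγ, with or without siBRM, and on no other array. In siSUZ12 cells with IFNγ its scaled signals were 323, 282 and 313, and in siSUZ12 + siBRM cells with IFNγ they were 288, 264 and 258. These 6 arrays all detected the probe, at a detection p-value of 0. In siCtrl cells with IFNγ the signals were 106, 113 and 117, and in siCtrl + siBRM cells with IFNγ they were 113, 114 and 113. No control array given IFNγ detected CXCL10, and their detection p-values ran from 0.0468 to 0.243. Before IFNγ, the signals were 108, 113 and 132 in siCtrl cells and 112, 110 and 118 in siSUZ12 cells. Before IFNγ in siBRM cells, they ran from 95.4 to 115 with siCtrl and were 116, 112 and 109 with siSUZ12. The lowest of the 6 high arrays was at 258 and the highest of the other 18 at 132. The share of all probes that separate these arrays in this way was not counted. The array at 132, an untreated siCtrl array, had the lowest detection p-value of the 18, at 0.0143. On the 6 high arrays, between 78.8% and 81.6% of all probes were dimmer than CXCL10.

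**Figure D1:**
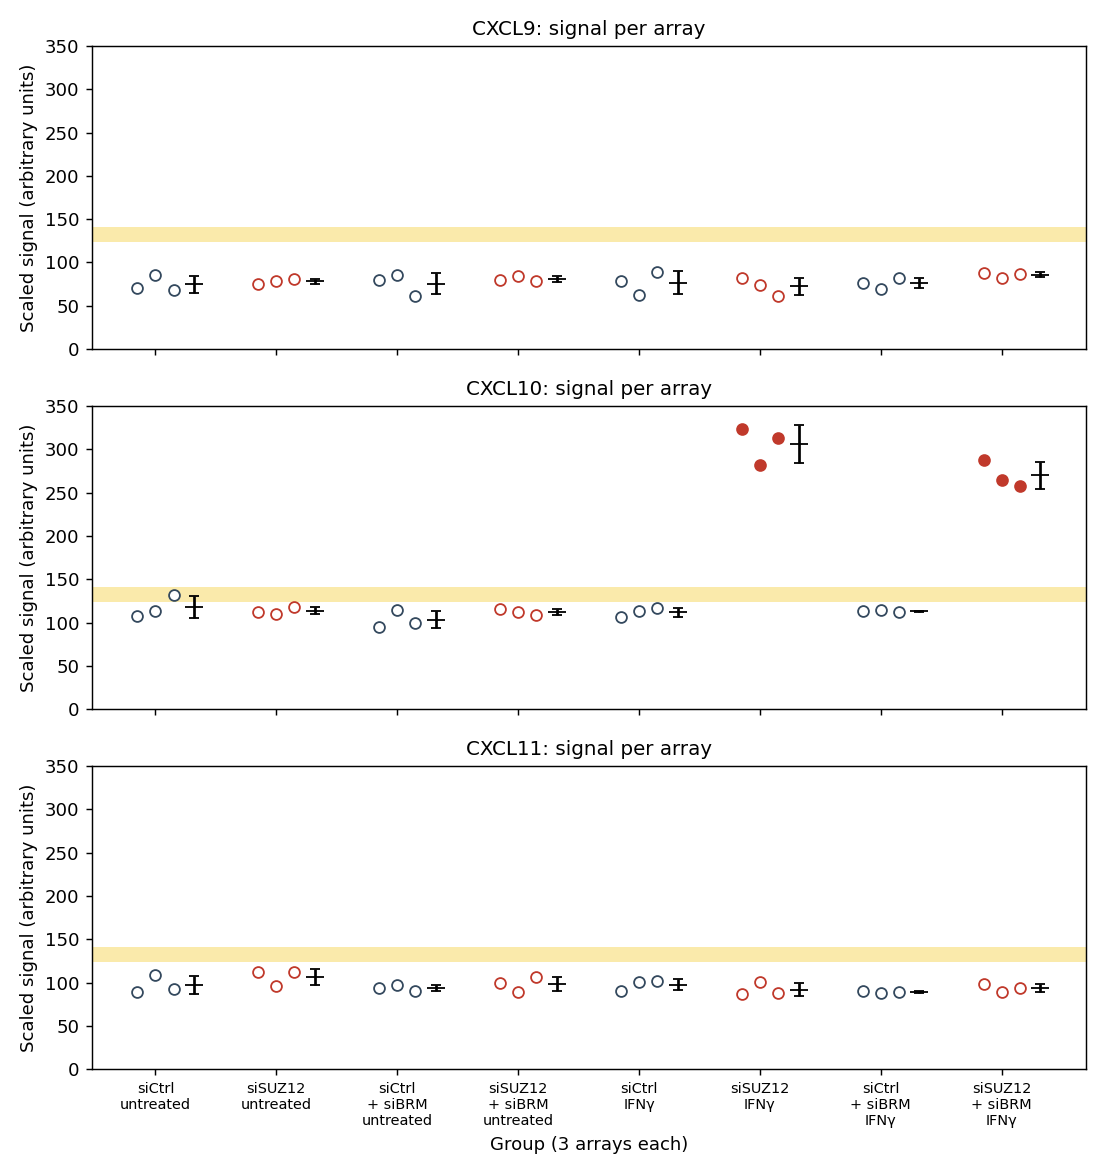
Scaled signal (arbitrary units, vertical axis) of the CXCL9, CXCL10 and CXCL11 probes on each array of the 8 groups (horizontal axis), in blue for siCtrl and red for siSUZ12 cells. Filled points were detected, black bars give the mean and SD of 3 arrays, and the yellow band spans the highest undetected signal of the 24 arrays, 123 to 141. Filled points appear for CXCL10 in siSUZ12 and siSUZ12 + siBRM cells with IFNγ, and nowhere else.

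Ordered by mean signal, siSUZ12 cells with IFNγ were highest for CXCL10, at 306 ± 21.6 (SD, n = 3), followed by siSUZ12 + siBRM cells with IFNγ at 270.0 ± 15.7 (SD, n = 3). Next came untreated siCtrl cells, at 118 ± 12.6 (SD, n = 3), and the lowest mean was that of untreated siCtrl + siBRM cells, at 103 ± 10.1 (SD, n = 3). The remaining 4 groups fell between 112 and 114. The arrays of the first 2 groups in this order overlapped, those of the second and the third (270.0 and 118) did not, and those of every later pair of neighbours overlapped. The order was set by these same signals, so the gap restates the values above. How many of all probes show such a gap was not counted.

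IFNγ induced CXCL10 after siSUZ12 and gave no detectable induction after siCtrl. In siSUZ12 cells the log2 induction was 1.43 (standard error 0.08, adjusted p = 3.98e-15, limma), a 2.69-fold rise with a 95% confidence interval of 2.39 to 3.03. CXCL10 was 1 of 130 probes raised at least 2-fold there, which is 0.275% of all probes, and stood 78th of 47231 by log2 change. In siSUZ12 + siBRM cells the log2 induction was 1.27 (standard error 0.08, adjusted p = 1.18e-13, limma), or 2.40-fold. There 0.296% of probes were raised at least 2-fold, CXCL10 among them. In siCtrl cells the log2 change was -0.07, with an interval of -0.24 to 0.10 (adjusted p = 0.965, limma), and 0.123% of probes were raised at least 2-fold, none of them for the 3 ligands. In siCtrl + siBRM cells it was 0.14, with an interval of -0.04 to 0.31 (adjusted p = 0.724, limma), and 0.159% of probes were raised at least 2-fold, again without a ligand. The median log2 change over all probes lay between -0.05 and 0.01 in these comparisons.

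CXCL10 differed between siSUZ12 and siCtrl cells after IFNγ, and no difference was detectable before it. With IFNγ the signal was 2.73-fold higher in siSUZ12 cells, a log2 difference of 1.45 (standard error 0.08, adjusted p = 1.44e-15, limma), and all 3 arrays were above all 3 controls. The share of probes at least 2-fold higher in this comparison was 0.481%, and the share with all 3 arrays above all 3 controls was not counted. These arrays of siSUZ12 cells with IFNγ also entered the comparison with untreated cells, so the 2 results are not independent. In siBRM cells, read on 6 other arrays, the difference was 2.38-fold, a log2 of 1.25 (adjusted p = 1.69e-13, limma), against 0.292% of all probes. In untreated cells the log2 difference was -0.05, with an interval of -0.22 to 0.12 (adjusted p = 0.861, limma). In untreated siBRM cells it was 0.12, with an interval of -0.05 to 0.29 (adjusted p = 0.518, limma). Among all probes, 0.451% and 0.241% were at least 2-fold higher in those untreated comparisons, and no ligand was among them.

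The effect of siSUZ12 on fold induction was tested as the interaction of siSUZ12 and IFNγ. Without siBRM, the log2 induction of CXCL10 was higher by 1.50 in siSUZ12 than in siCtrl cells (standard error 0.12, adjusted p = 1.29e-10, limma). It was 1 of 20 probes, or 0.0423% of all, whose induction was at least 2-fold higher, and it stood 15th by size. In siBRM cells the induction was higher by 1.13 (standard error 0.12, adjusted p = 1.59e-07, limma), where 18 probes, or 0.0381%, had an induction at least 2-fold higher. Background correction by neqc, which subtracts a negative-control level inferred here from the detection p-values, put these differences at 2.80 and 2.18 on the log2 scale. Untreated cells did not have CXCL10 above background, so after subtraction these values depend on the offset of 16 that neqc adds, and no exact fold can be read from them.

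**Figure D2:**
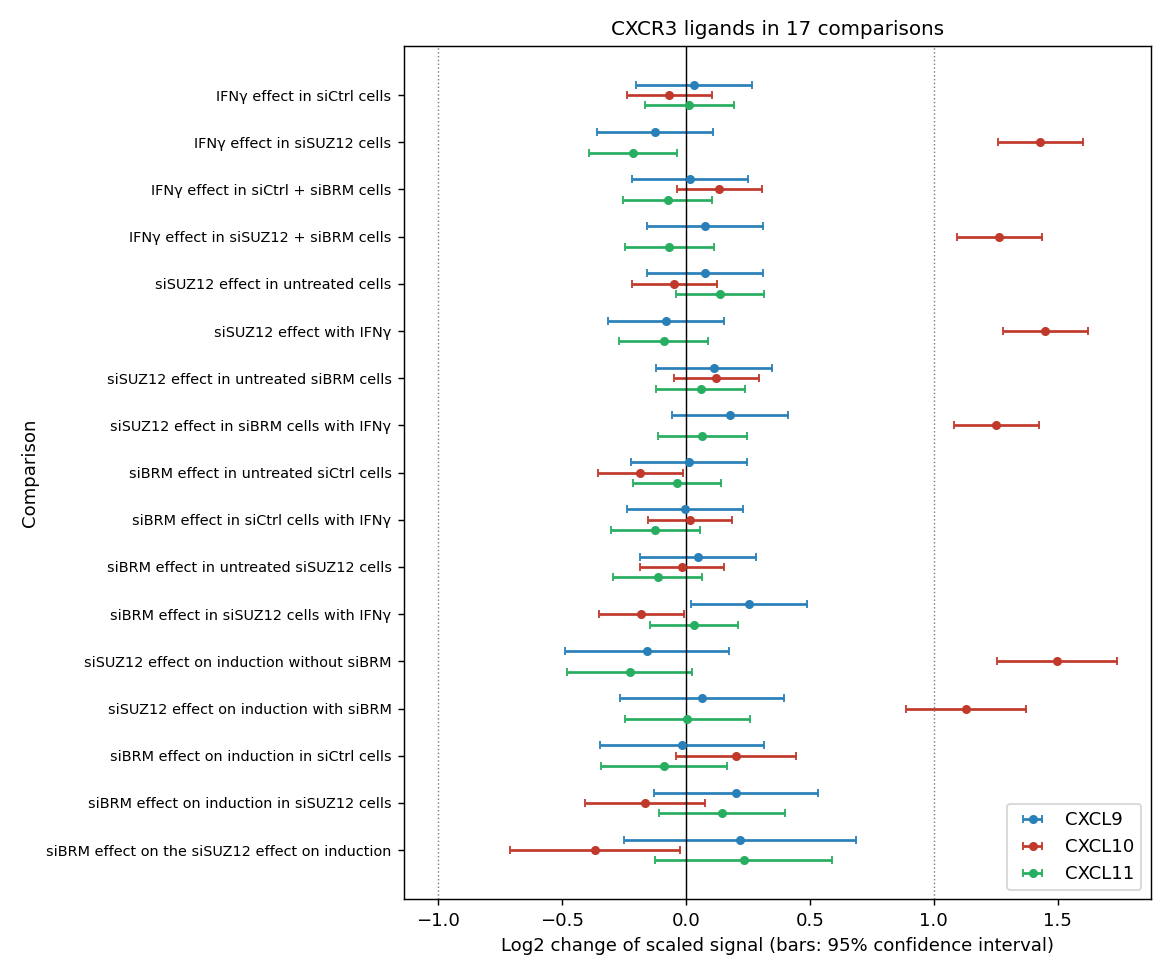
Log2 change of scaled signal (horizontal axis) for CXCL9 (blue), CXCL10 (red) and CXCL11 (green) in the 17 comparisons (vertical axis), each with its 95% confidence interval from limma. The dotted lines mark a 2-fold change. Only the red points of the 6 comparisons that test IFNγ in siSUZ12 cells, siSUZ12 in cells with IFNγ, or siSUZ12 on induction lie to the right, from 1.13 to 1.50, and the other points lie between -0.37 and 0.25.

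Knockdown of BRM did not remove the induction of CXCL10 in siSUZ12 cells. With IFNγ, siSUZ12 + siBRM cells had 0.882 times the CXCL10 signal of siSUZ12 cells, with a confidence interval of 0.784 to 0.993. This log2 change of -0.18 had an unadjusted p of 0.0392 and did not pass the adjustment over all probes (adjusted p = 0.345, limma), and the array ranges of 282 to 323 and 258 to 288 overlapped. In this comparison 0.0339% of all probes changed at least 2-fold either way, and 6088 of 47231 had an unadjusted p below 0.05 in limma. In siCtrl cells with IFNγ the log2 change by siBRM was 0.02 (adjusted p = 0.978, limma), where 0.0741% of probes changed at least 2-fold. In untreated cells it was -0.18 with siCtrl, with an interval of -0.36 to -0.01 (unadjusted p = 0.0352, adjusted p = 0.342, limma). With siSUZ12 it was -0.02 (adjusted p = 0.982, limma). In these 2 comparisons 0.0805% and 0.0339% of probes changed at least 2-fold, and no untreated array detected CXCL10. For untreated siCtrl cells, 5781 of 47231 probes had an unadjusted p below 0.05 in limma.

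The fold induction of CXCL10 itself changed by a log2 of -0.16 with siBRM in siSUZ12 cells (interval -0.41 to 0.08) and by 0.20 in siCtrl cells (interval -0.04 to 0.44). Neither passed the test (adjusted p of 0.9998 or more, limma). The gain in induction from siSUZ12 changed with siBRM by a log2 of -0.37, with an interval of -0.71 to -0.02 (adjusted p = 0.9999, unadjusted p = 0.0367, limma). This term takes in the change of 0.20 in siCtrl cells, where no array detected CXCL10. Among all probes, 0% in siCtrl cells, 0.00212% in siSUZ12 cells and 0.00212% for the gain in induction changed at least 2-fold in these tests. For the siCtrl cells no probe passed an adjusted p below 0.05 and 1895 had an unadjusted p below 0.05 in limma. For the gain in induction, 1718 of 47231 probes had an unadjusted p below 0.05 in limma. Total siRNA was 125 nM wherever siBRM was added and 50 nM elsewhere, so loss of BRM and siRNA load cannot be told apart.

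CXCL9 was detected on 0 of the 24 arrays. Its scaled signals ran from 61.7 to 88.6 with a median of 79.4, and its detection p-values from 0.618 to 0.995, so its probe was dimmer than most negative controls throughout. In siSUZ12 cells with IFNγ, where CXCL10 was highest, CXCL9 read 81.8, 73.5 and 61.7, against 79.1, 62.5 and 88.6 in siCtrl cells with IFNγ. The siSUZ12 and siCtrl arrays overlapped, and the groups' means ran from 72.3 to 85.7 over all 8 groups. The log2 induction of CXCL9 by IFNγ was 0.03 in siCtrl, -0.12 in siSUZ12, 0.01 in siCtrl + siBRM and 0.08 in siSUZ12 + siBRM cells. The intervals of these inductions lay within -0.36 to 0.31.

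CXCL11 was also detected on 0 of the 24 arrays, and its signals were nearer the detection limit than those of CXCL9. They ran from 87.3 to 112, with a median of 93.9 and detection p-values of 0.0961 to 0.697. In siSUZ12 cells the signals were 112, 95.8 and 112 untreated and 87.3, 100.3 and 87.8 with IFNγ. The log2 change with IFNγ was thus -0.21 in siSUZ12 cells (interval -0.39 to -0.03), a fall that did not pass the adjustment over all probes (unadjusted p = 0.0211, adjusted p = 0.316, limma). Of all 47231 probes, 5374 had an unadjusted p below 0.05 there in limma. In siCtrl, siCtrl + siBRM and siSUZ12 + siBRM cells the log2 change of CXCL11 with IFNγ was 0.01, -0.07 and -0.07. The means of the 8 groups ran from 89.5 to 107.

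Over all 17 comparisons, 0 of the tests of CXCL9 and 0 of those of CXCL11 passed an adjusted p below 0.05 in limma, against 6 for CXCL10. At an unadjusted p below 0.05 the numbers were 1 for CXCL9, 1 for CXCL11 and 9 for CXCL10. Of all 47231 probes, 1718 to 10493 per comparison had an unadjusted p below 0.05 in limma, and 0 to 6721 an adjusted one. The 17 comparisons reuse the same group means. All 6 passes of CXCL10 draw on the same 6 arrays where it was high, so they are not separate results. For the interaction of siSUZ12 and IFNγ, the interval of CXCL10 (1.25 to 1.74) lay above those of CXCL9 (-0.49 to 0.18) and CXCL11 (-0.48 to 0.03). No test between probes was run. A transcript of CXCL9 or CXCL11 below the detection limit would not show here, and a change in such a transcript was not detectable at these signals.

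Few other probes shared the profile of CXCL10. Detection in the 6 siSUZ12 arrays with IFNγ and in none of the other 18 was found for 16 probes, or 0.0339% of all, CXCL10 included. Among the 16, log2 induction in siSUZ12 cells ran from 0.31 to 4.62 with a median of 1.58, and CXCL10 stood 10th. A rise with IFNγ in these cells follows from the choice by detection, so it is no separate result. Likeness was measured as the root mean square difference between the log2 means of the 8 groups, after each probe was centred on its own mean. The closest probe was ILMN_1701114, at 0.13, with a log2 induction of 1.80 in siSUZ12 and 1.61 in siSUZ12 + siBRM cells and of -0.06 and 0.07 in the matching siCtrl cells. The next was ILMN_1799467, at 0.19, with inductions of 1.07 and 0.81 in siSUZ12 cells without and with siBRM. When profiles were also divided by their range, ILMN_1701114 was again the closest. Both probes were chosen for their likeness to CXCL10, so their inductions are no separate result. The table gives no names for these probes. CXCL9 and CXCL11 were at differences of 0.59 and 0.62 from CXCL10, and as neither was detected on any array, their own profiles hold no more than the variation of undetected probes.

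**Figure D3:**
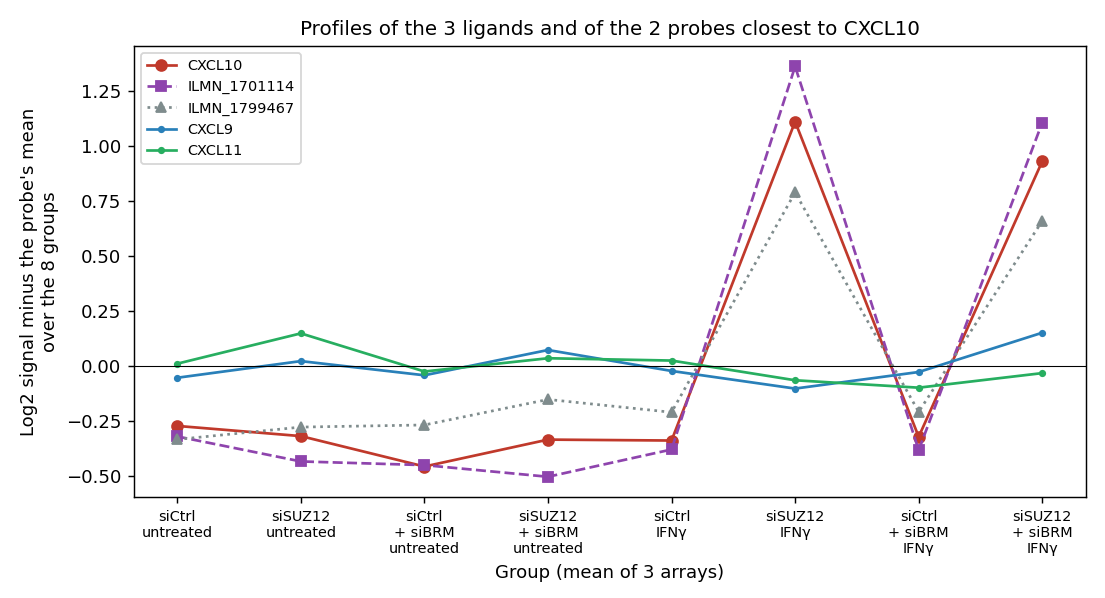
Log2 signal minus the mean over the 8 groups (vertical axis) for CXCL10, the 2 probes closest to it, CXCL9 and CXCL11 in each group (horizontal axis, mean of 3 arrays). CXCL10 and both closest probes rise in the 2 siSUZ12 groups with IFNγ, while the group means of CXCL9 and of CXCL11 each span 0.25.

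**Figure D4:**
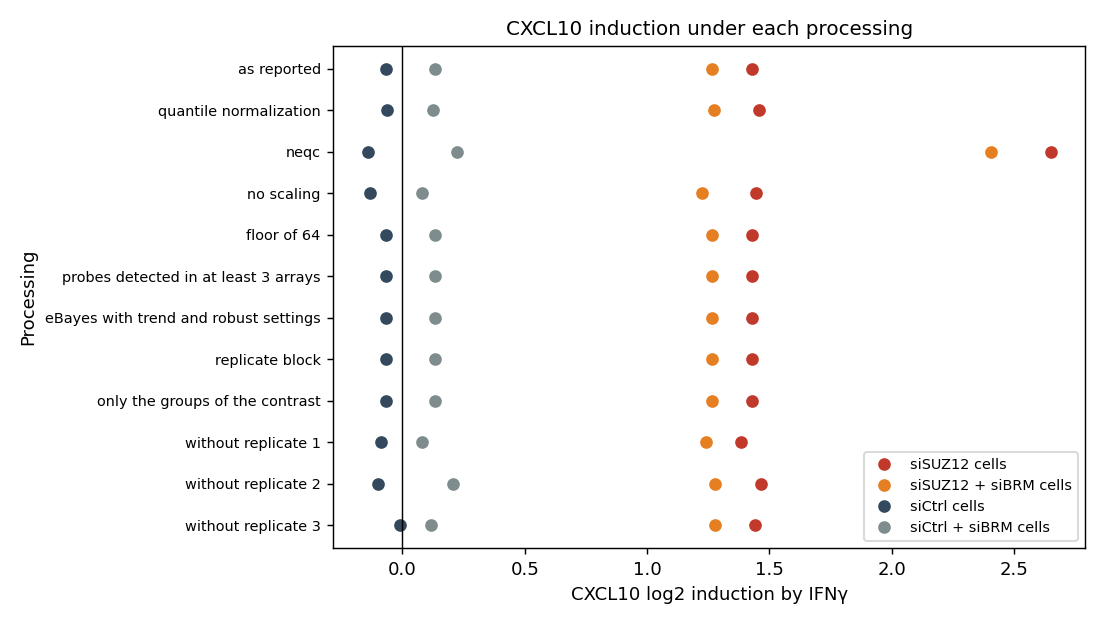
Log2 induction of CXCL10 by IFNγ (horizontal axis) in the 4 siRNA backgrounds, as reported and under each other processing drawn (vertical axis), which do not include leaving out single arrays. The siSUZ12 points drawn lie at 1.23 or more and the siCtrl points at 0.23 or less, and neqc places the siSUZ12 points farthest to the right, at 2.41 and 2.65.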

How the data were processed

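Total RNA was extracted with Trizol, converted to biotinylated cRNA and hybridized to Illumina BeadChips, with 3 biological replicates per group. The authors deposited 1 table of probe signal intensity for 24 arrays, without normalization and read out with BeadStudio, whose version is not given in the sources used here. Each intensity came with a detection p-value deposited by the authors. Groups and replicate numbers were taken from the sample titles. Members and lists were chosen with earlier results of these data known.

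Every array was rescaled so that its mean signal matched the average over arrays, as a form of the average normalization that the methods name. Values were floored at 16, which none reached, and put on the log2 scale. The fit used limma 3.58.1 (R 4.3.3) and was made to all 24 arrays and all genes on the array, 47231 probes, with 1 mean per group, leaving 16 residual degrees of freedom, and the code was tested on simulated data. Adjusted p-values are Benjamini-Hochberg over all probes of a comparison. The rule for named probes was the 3 ligands in every comparison and the 2 closest in profile. Arrays give no counts, and their number limits the precision. Alternatives were quantile normalization, neqc (offset 16), no scaling, flooring at 64, restriction to probes with detection on 3 or more arrays, only the groups compared, limma's trended and robust moderation, the replicate number as a block, and leaving out each replicate number or array. Genes of the CXCR3 and IFNγ pathways and cell type markers, which need gene names, were not analysed here. Promoters and coordinates are RefSeq, GRCh38.p14, and all 3 genes matched. Figures used matplotlib 3.10.9 in Python 3.11.15.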

Additional observations from a re-analysis of the deposited data

Results flagged for a closer look

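The effect of IFNγ on CXCL10 differed between siSUZ12 and siCtrl cells by a test of the difference itself. The log2 difference in induction was 1.50 without siBRM and 1.13 with siBRM (adjusted p = 1.29e-10 and 1.59e-07, limma with Benjamini-Hochberg adjustment). In both, all 3 siSUZ12 arrays with IFNγ were above all 3 control arrays with IFNγ. The share of all probes with such a separation was not counted. No such difference passed the test for CXCL9 or CXCL11. No test for outlying arrays was run. With each array left out in turn, the CXCL10 difference ran from 1.41 to 1.56 without siBRM and from 1.05 to 1.19 with it.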

How the results depend on the processing

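The 17 comparisons of each ligand were recomputed under every alternative. CXCL10 kept its side of an adjusted p of 0.05 (limma) in all 187 values, with 66 of them past it, and changed sign in 3, all of them values that failed the test both ways. One of these alternatives, the filter on probes detected in at least 3 arrays, is no support, since CXCL10 passed it only through the 6 arrays where it was high. CXCL9 and CXCL11 passed the test in 0 of 170 values each; the filter on detected probes removed both, so it gave no value for them. Without a replicate number, the log2 induction of CXCL10 ran from 1.38 to 1.47 in siSUZ12 and from 1.24 to 1.28 in siSUZ12 + siBRM cells. Leaving out single arrays gave 1.39 to 1.49 and 1.22 to 1.30. The effect of siSUZ12 on induction was 1.45 to 1.57 without siBRM and 1.07 to 1.16 with it when a replicate number was left out. With neqc the CXCL10 inductions were 2.65 and 2.41, against untreated levels not above background. Detection at p below 0.05 added 2 arrays for CXCL10, making 8, and 0 for CXCL9 and CXCL11. The added arrays were 1 untreated siCtrl array and 1 siCtrl + siBRM array with IFNγ. At that threshold, detection of CXCL10 was thus not limited to siSUZ12 cells with IFNγ.

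The correlation of deviations of same-numbered arrays ran from -0.10 to 0.36 over 84 pairs, with a median of 0.10. For 168 pairs of different number the median was -0.05. Of the 24 arrays, 17 were closest to one of their own number, so arrays of a number shared some variation. The numbers were not taken as pairs in the main fit. With the replicate block the CXCL10 inductions were 1.43 and 1.27 (adjusted p = 2.30e-14 and 5.39e-13, limma), and the block changed no call of the ligands. As every group holds each number once, the block can alter the spread but not the inductions.

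Quantile normalization kept all 17 background counts within 1.5 times. With neqc the probes raised at least 2-fold by IFNγ went from 58, 130, 75 and 140 (siCtrl, siSUZ12, siCtrl + siBRM, siSUZ12 + siBRM) to 95, 214, 130 and 223, those higher after siSUZ12 from 213, 227, 114 and 138 (untreated and with IFNγ, without and then with siBRM) to 546, 566, 260 and 274, and those with a higher induction from 20 and 18 to 53 and 33. Probes changed by siBRM went from 38, 35, 16 and 16 to 87, 76, 69 and 64, and for the induction terms from 1 and 1 to 6 and 2. With no 2-fold threshold the same counts, which by construction cannot be smaller, were 280, 565, 466 and 679, then 3853, 3440, 2379 and 2227, then 86 and 46, then 1599, 1479, 1389 and 1604, then 13 and 1.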
